A study of Saccharomyces cerevisiae with 54 samples.

Results

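The synaptonemal complex and chromosome axis genes described here are 6 of the 6679 genes listed in each table, namely HOP1 (YIL072W), RED1 (YLR263W), MEK1 (YOR351C), ZIP1 (YDR285W), ECM11 (YDR446W) and GMC2 (YLR445W). They were taken by systematic name, with no threshold on a measured value, and all 6 passed the filter of a mean of at least 5 RPKM (reads per kilobase of gene, scaled to library size) in each fit. Budding yeast of the SK1 background was sampled in a course of 10 states, with 1 ribosome footprint, 1 mRNA and 1 total RNA library per state. Cells of the MATa/a strain stood in sporulation medium for 4.5 h and were labelled non-meiotic. The states set against them were meiotic cells at 0, 1.5, 3, 4.5, 6, 8 and 10 h in sporulation medium, spores, and vegetative cells growing exponentially in YEPD. A set called parallel here held duplicate footprint libraries of 1.5, 3 and 6 h with single ones of 0 h and vegetative cells, and duplicate mRNA libraries of 1.5 and 6 h with a single one of 3 h. The third set held mRNA of strain brun95 in meiosis, with 5 libraries after Ndt80 induction (5.75, 6, 6.5, 7 and 7.75 h) and 4 without it (4, 5.5, 6 and 7.75 h). The agent of induction and the strain of the other libraries are not named in the labels. The labels also do not say that replicates are separate cultures. In the parallel set each p-value then reflects how far duplicate libraries scatter, which may be technical. The induction set has 1 library per arm and hour. Its p-values set a change against the departure of these libraries from straight lines over hours.

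In meiotic prophase each pair of sister chromatids is organised into loops along a protein axis. Hop1, a protein with a HORMA domain, and Red1 build the axis, and the kinase Mek1 acts on it, directs repair of programmed DNA breaks to the homologous chromosome and restrains exit from prophase while breaks remain. Homologues are then zipped together by the synaptonemal complex, with Zip1 as the transverse filament and Ecm11 and Gmc2 as parts of its central element, where Ecm11 carries the small modifier SUMO. The complex is taken apart after the transcription factor Ndt80 starts the exit from prophase.

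Depth, as the reads recovered from the values (in units of 1000000), was 1.03 to 17.7 for parallel libraries, 2.27 to 17.0 for footprints and 8.70 to 24.7 for mRNA of the course, and 2.62 to 8.02 for the induction libraries. Of the state markers, the mRNA library labelled MATa/a 4.5 h held 18.6 RPKM of IME2, a kinase of meiotic entry, against 4958 in meiotic cells at 4.5 h. That mRNA library stood close to the vegetative one across genes (Pearson's r = 0.97) and apart from the meiotic 4.5 h one (r = 0.54). Mating type and growth state cannot be told apart in it. RPL3, a ribosomal protein gene high in growth, had 18177 RPKM in it and 20846 in vegetative mRNA, while the footprint library of the same label had 2788 RPKM of RPL3, against 21506 in vegetative footprints. The 0 h mRNA library of the course had a median gene that changed by -0.83 by 1.5 h (log2), and changes against it are given relative to the median gene.

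All 6 genes were low at 0 h, stood much higher by 1.5 h, were highest at 3 or 4.5 h and lower again at 6 and 8 h, in mRNA and in footprints. In these bulk samples fewer cells in a stage and less RNA per cell cannot be told apart. HOP1 had 107, 1912, 2157, 1135, 556, 190.3 and 486 RPKM of mRNA at 0, 1.5, 3, 4.5, 6, 8 and 10 h. Its footprints were 51.8, 2464, 3229, 2255, 1027, 429 and 303 RPKM at the same times. HOP1 was thus the earliest of the axis genes, with its 3 h level nearly reached at 1.5 h. RED1 had 84.9, 658, 950.0, 729, 218, 109 and 251 RPKM of mRNA and 4.23, 314, 646, 624, 305, 149 and 76.2 RPKM of footprints. MEK1 had 42.7, 977, 1697, 1037, 555, 152 and 538 RPKM of mRNA and 18.8, 1273, 2516, 2208, 1224, 336 and 347 RPKM of footprints. RED1, the axis scaffold, was the lowest of the 6 in footprints at each time from 1.5 to 10 h.

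The genes of the synaptonemal complex itself were nearer to their highest mRNA level at 4.5 and 6 h than the axis genes, which did not hold in footprints. ZIP1 had 41.4, 495, 1028, 950.2, 438, 226 and 309 RPKM of mRNA at 0, 1.5, 3, 4.5, 6, 8 and 10 h, and 13.5, 424, 1058, 1093, 624, 299 and 137 RPKM of footprints. ECM11 had 39.5, 751, 1897, 2093, 1030.5, 381 and 644 RPKM of mRNA, and 13.6, 807, 2476, 2337, 1238, 637 and 282 RPKM of footprints. GMC2 had 22.7, 209, 1294, 1333, 804, 319 and 467 RPKM of mRNA, and 15.2, 439, 3368, 4065, 1861, 893 and 439.5 RPKM of footprints. Of all 6679 genes, GMC2 ranked 148 in footprints and 506 in mRNA at 4.5 h, and at 0 h it ranked 4714 and 5601.

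**Figure D1:**
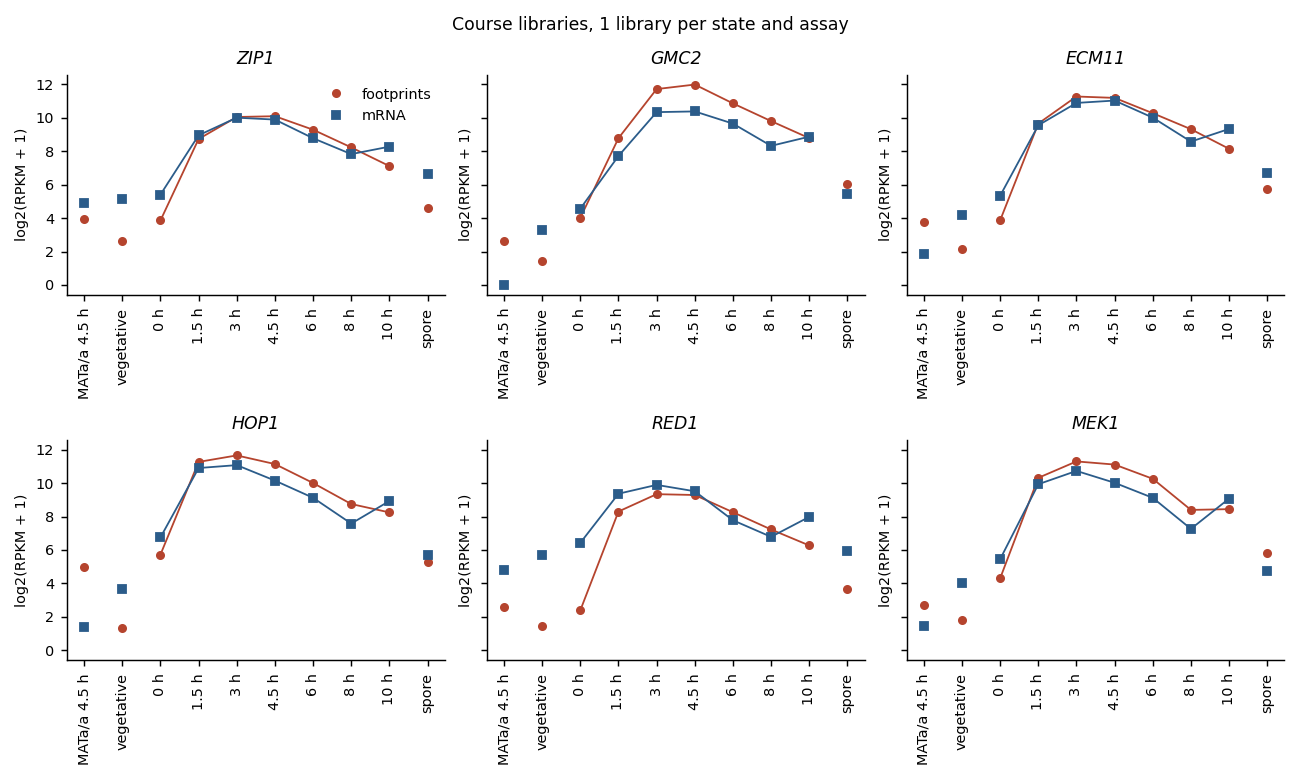
Course levels of the 6 genes, as log2(RPKM + 1) on the vertical axis, for each state on the horizontal axis, with circles for footprints and squares for mRNA (1 library each) and lines joining 0 to 10 h. All panels climb between 0 and 3 h, and between 8 and 10 h the mRNA points go up in every panel while the footprint points go down in all but MEK1.

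Counted as past 2-fold relative to the median gene, 6 of 6 genes were higher at 1.5 h than at 0 h in mRNA, by 3.77 to 5.31 on the log2 scale, where 23.9% of 6012 genes were. In footprints 6 of 6 were higher, by 4.07 to 5.31, against 22.3% of 5631 genes. Between 1.5 and 3 h the counts were 2 of 6 in mRNA (GMC2 with 2.41 and ECM11 with 1.12), against 2.99% of all genes, and 5 of 6 in footprints, all but HOP1, against 2.66%. From 3 to 4.5 h 0 of 6 genes were past 2-fold either way in mRNA or footprints, where 11% and 10.1% of all genes were higher and 1.83% and 0.906% lower. The course has 1 library per state and no test.

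The genes differed in the hour at which they approached their own maximum. At 1.5 h the mRNA of HOP1 stood at 88.6% of its highest value, that of RED1 at 69.3%, MEK1 at 57.6%, ZIP1 at 48.2%, ECM11 at 35.9% and GMC2 at 15.7%. In the mRNA of the course, with 1 library per time, the 3 axis genes were therefore ahead of the 3 genes of the synaptonemal complex. Footprints had HOP1 first (76.3%), then MEK1 (50.6%) and RED1 (48.6%). ZIP1 (38.8%), ECM11 (32.6%) and GMC2 (10.8%) followed, so the same 3 genes led in the course. On the way down, at 4.5 h, the order was nearly the reverse, with HOP1 mRNA at 52.6%, MEK1 at 61.1% and RED1 at 76.7% of the maximum, ZIP1 at 92.4%, and ECM11 and GMC2 at their maximum of 100%. Footprints at 4.5 h did not separate the same genes, with HOP1 at 69.8%, MEK1 at 87.7%, ECM11 at 94.4%, RED1 at 96.6%, and ZIP1 and GMC2 at 100%.

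**Figure D2:**
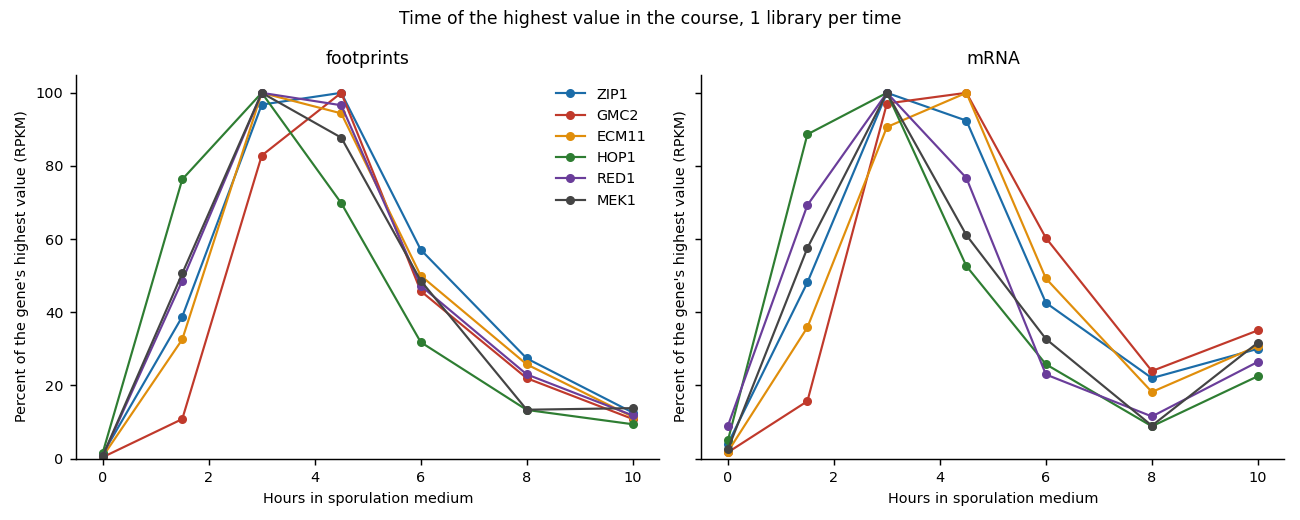
Percent of each gene's own highest RPKM (vertical axis) by hours in sporulation medium (horizontal axis), with footprints left and mRNA right and 1 library per point. At 1.5 h HOP1 is the highest line (88.6% in mRNA) and GMC2 the lowest (15.7%).

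The shift between the first and the last of these genes was also present in the parallel libraries. This pair was taken from the course as its extremes. The labels do not say whether the parallel libraries come from another culture than the course. The ratio of GMC2 to HOP1 in footprints was 0.117 and 0.142 at 1.5 h, 0.722 and 0.834 at 3 h, and 1.53 and 1.49 at 6 h (values per replicate, both genes per length). In mRNA the ratio was 0.0745 and 0.130 at 1.5 h, 0.719 in the lone library of 3 h, and above 1 at 6 h, with 1.13 in the lower of the replicates. Replicates of one time did not overlap those of another in either assay. The ratio is a description without a test. Between these extremes the parallel footprints did not place MEK1 ahead of the genes of the complex. From 1.5 to 3 h MEK1 rose by 1.36, ECM11 by 1.33 and ZIP1 by 1.40 on the log2 scale. The GMC2 values gave whole reads with a gene length of 567 bases and not with the 649 bases of the reference gene, so the level of GMC2 relative to other genes depends on the length used, while its changes over time do not.

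From 6 h on the levels were lower in both assays. At 6 h against 4.5 h 1 of 6 genes, RED1, was lower past 2-fold in mRNA (-1.35, against 2.21% of all genes), and 0 of 6 in footprints (-0.60 to -0.93, against 3.96%). At 8 h against 6 h 4 of 6 were lower in mRNA (5.06% of all genes), with MEK1 at -1.67, HOP1 at -1.35, ECM11 at -1.24 and GMC2 at -1.14. In footprints 2 of 6 were lower, MEK1 (-1.69) and HOP1 (-1.08), against 5.63%. Without the shift of the median gene taken off, the counts at 6 h were 4 and 3 and the footprint count at 8 h was 5.

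Between 8 and 10 h mRNA and footprint values moved in opposite directions for 5 of 6 genes, and for MEK1 footprints were 347 RPKM at 10 h, against 336 at 8 h. Relative to the median gene the mRNA of all 6 genes stood higher at 10 h, by 0.07 (ZIP1) to 1.43 (MEK1), with only MEK1 past 2-fold against 8.63% of all genes. Footprints of all 6 stood lower, at -0.09 (MEK1) to -1.31 (ECM11), and 4 of 6 were past 2-fold, against 13.3%. Total RNA of the same states lay between, at -0.22 to 0.57, with 0 of 6 past 2-fold. The higher level at 10 h was therefore present in the mRNA library and small or absent in the total RNA library. In spores against 10 h, 6 of 6 genes were lower in mRNA (-1.93 to -4.63, against 15.6% of all genes) and in footprints (-2.51 to -3.08, against 11.3%).

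Outside meiosis the genes were low. In the MATa/a library, against meiotic cells at 4.5 h, footprints of HOP1 were 30.1 and 2255 RPKM, of ZIP1 14.3 and 1093, of ECM11 12.7 and 2337, of MEK1 5.50 and 2208, of GMC2 5.18 and 4065, and of RED1 4.94 and 624. Thus 6 of 6 were lower past 2-fold in footprints, against 19.3% of all genes, and 6 of 6 in mRNA, against 27.7%. In that mRNA contrast mating type and growth state cannot be told apart. In mRNA GMC2 was listed at 0 in the MATa/a library, HOP1 at 1.59, MEK1 at 1.75 and ECM11 at 2.63 RPKM. ZIP1 at 29.1 RPKM was near its vegetative value of 34.5 RPKM, and RED1 at 26.7 RPKM was below its vegetative 51.9 RPKM. ZIP1 and RED1 thus had the highest mRNA of the 6 in both non-meiotic libraries, which were alike across genes (r = 0.97). Their vegetative footprints were 5.25 and 1.69 RPKM, and those of the other 4 genes were 1.50 to 3.45 RPKM, from 3 to 12 reads.

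In the parallel libraries the early rise could be tested in footprints. At 1.5 h the replicates had 2503 and 2798 for HOP1, 1029 and 1417 for MEK1, 382 and 384 for ZIP1, 1102 and 961 for ECM11, 294 and 398 for GMC2, and 300.2 and 322 for RED1 (RPKM). The single 0 h library had 80.5 RPKM for HOP1, 29.6 for MEK1, 22.0 for ZIP1, 13.3 for ECM11, 11.2 for GMC2 and 8.17 for RED1. Both 1.5 h libraries were above the 0 h library for each of the 6 genes, a separation not counted over all genes. The lone 0 h library has no spread of its own, and the p-values take it to scatter as the duplicated groups do. In limma, 6 of 6 rose (Benjamini-Hochberg adjusted p from 7.47e-07 to 1.31e-05), where 48.6% of 5948 genes did, and with each library centred on its median gene 1419 genes rose and 1534 fell, against 2888 and 511 as deposited. ECM11 changed most, by 6.17 (SE 0.287) on the log2 scale, and ZIP1 least, by 4.06 (SE 0.227), while the median gene changed by 0.75. The 0 h library was the shallowest, with 2 reads for GMC2, 4 for ECM11 and 7 for RED1. For GMC2 the ratio of the 1.5 h mean to 0 h was 31.0, with an exact 95% counting interval of 8.57 to 256.

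Between 1.5 and 3 h the synaptonemal complex genes rose in both assays, and of the axis genes MEK1 rose in footprints. Whether the 3 genes of the complex differed from the 3 axis genes in this change was not tested. The mRNA calls were lost with mRNA libraries alone in the fit. GMC2 footprints were 2951 and 3076 RPKM at 3 h, against 294 and 398 at 1.5 h, and its mRNA was 1443 RPKM in the lone 3 h library, against 134 and 286 at 1.5 h. ECM11 footprints were 2661 and 2528 RPKM at 3 h, against 1102 and 961 at 1.5 h, and its mRNA 2699 against 639 and 1012. ZIP1 footprints were 1001 and 1027 RPKM at 3 h, against 382 and 384 at 1.5 h, and its mRNA 1156 against 411 and 536. Of the axis genes only HOP1 mRNA had overlapping groups, and how many of all genes separate was not counted. The groups did not overlap for the 3 complex genes in either assay. The limma fit pooled the spread of footprint and mRNA libraries for each gene, so the mRNA p-values rest partly on footprint scatter. At 1.5 h the duplicates of these 3 genes lay closer in footprints than in mRNA on the log2 scale. In limma their mRNA rose by 2.87 (GMC2, SE 0.381, adjusted p = 0.0116), 1.75 (ECM11, SE 0.287, adjusted p = 0.0224) and 1.30 (ZIP1, SE 0.227, adjusted p = 0.0251). Their footprints rose by 3.14 (GMC2, SE 0.311, adjusted p = 0.00115), 1.33 (ECM11, SE 0.234, adjusted p = 0.0150) and 1.40 (ZIP1, SE 0.185, adjusted p = 0.00445).

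HOP1, the early axis gene, had 2007 RPKM of mRNA at 3 h, against 1806 and 2200.4 at 1.5 h, so the 3 h library lay between the 1.5 h replicates. Its mRNA change was 0.01 (limma, 95% interval -0.47 to 0.49, adjusted p = 0.987), and its sign turned with centring, to -0.09. HOP1 footprints were 4088 and 3690.0 RPKM at 3 h, against 2503 and 2798 at 1.5 h, which did not pass (0.55, interval 0.16 to 0.94 before adjustment, adjusted p = 0.0789). RED1 had 936 RPKM of mRNA at 3 h, against 462 and 672 at 1.5 h (0.75, adjusted p = 0.370), and 639.9 and 674 of footprints, against 300.2 and 322 (1.08, adjusted p = 0.0858). MEK1, the axis kinase, had 1741 RPKM of mRNA at 3 h, against 733 and 1035 at 1.5 h, which did not pass (0.999, adjusted p = 0.0900). MEK1 footprints were 3167 and 3055 RPKM at 3 h, against 1029 and 1417 at 1.5 h, and rose by 1.36 (SE 0.238, adjusted p = 0.0146).

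In all, 3 of 6 members rose in mRNA, against 2.81% of genes, and 4 of 6 in footprints, against 3.87%. Over all genes 167 mRNAs rose and 44 fell, which became 73 and 53 with centring and 306 and 295 with quantile normalization, and 230 footprints rose and 232 fell, which became 335 and 176 with centring. With mRNA libraries alone in the fit 0 of 6 mRNAs passed, and 1 of 6, GMC2, without either footprint library of 6 h. ZIP1 mRNA also missed the threshold without either 3 h footprint library or without 1.5 h mRNA replicate 1 (limma, adjusted p from 0.0549 to 0.0679 over these libraries). In footprints 2 of 6 passed, GMC2 and ZIP1, without 1.5 h replicate 1 or without 3 h replicate 1, and 1 of 6, GMC2, without 3 h replicate 2. RED1 footprints passed as well without either 6 h mRNA library (limma, adjusted p = 0.0339 and 0.0350).

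**Figure D3:**
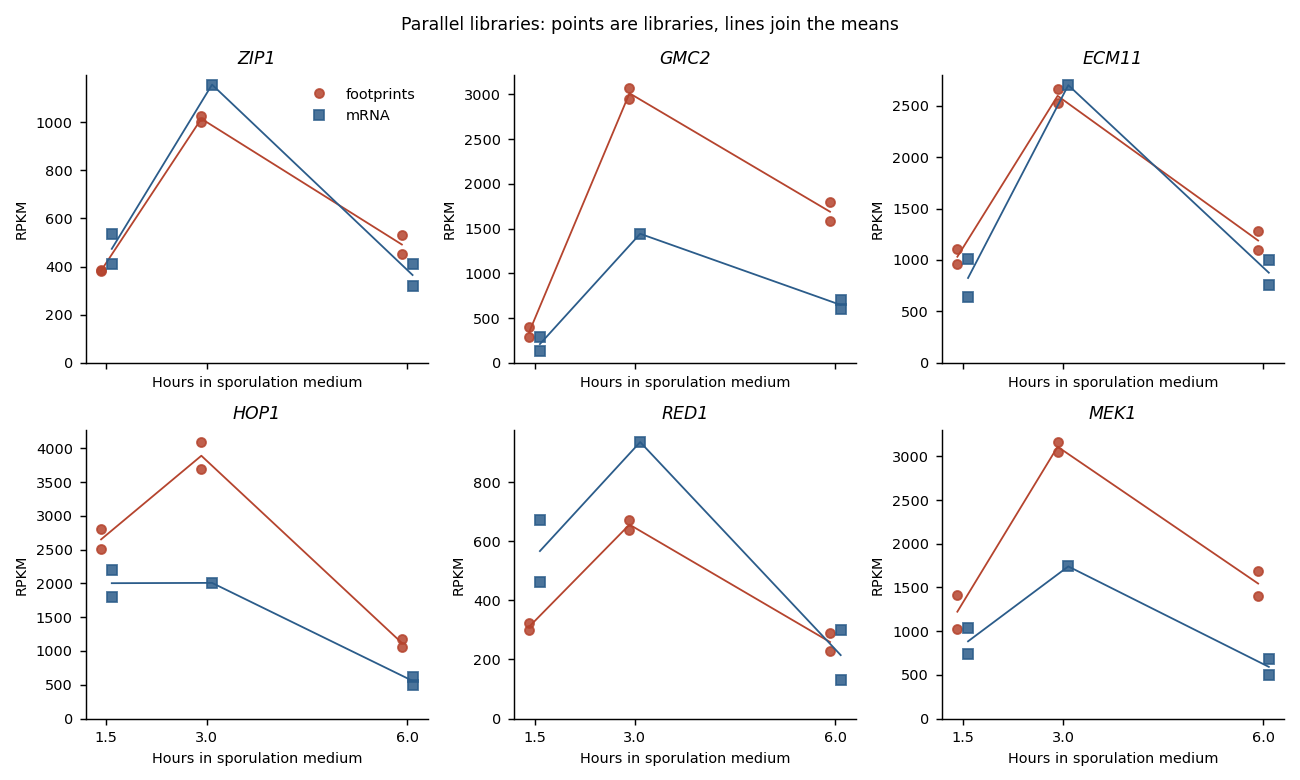
RPKM (vertical axis, from 0, scaled per panel) of the 6 genes by hours in sporulation medium in the parallel set, with circles for footprint libraries, squares for mRNA libraries and lines through the means. HOP1 mRNA at 3 h (2007) lies between the 1.5 h libraries (1806 and 2200.4), while GMC2 is far higher at 3 h in both assays.

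By 6 h all 6 genes had fallen in both assays, GMC2 with the least stable call. At 6 h against 3 h, HOP1 mRNA was 616 and 499 RPKM against 2007, and its footprints were 1176 and 1062 against 4088 and 3690.0. RED1 mRNA was 298 and 131 RPKM against 936, and its footprints were 290.3 and 228 against 639.9 and 674. MEK1 mRNA was 681 and 502 RPKM against 1741, and its footprints were 1692 and 1398 against 3167 and 3055. Every 6 h library of these axis genes was below every 3 h library of the same assay. ZIP1 mRNA was 409 and 321 RPKM against 1156, and its footprints were 532 and 451 against 1001 and 1027. ECM11 mRNA was 1000.1 and 753 RPKM against 2699, and its footprints were 1281 and 1097 against 2661 and 2528. GMC2 mRNA was 698 and 599 RPKM against 1443, and its footprints were 1795 and 1585 against 2951 and 3076. These groups did not overlap either, and how many of all genes separate in this way was not counted.

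In limma 6 of 6 mRNAs fell, with log2 changes of -1.16 (GMC2, SE 0.381, adjusted p = 0.0271) to -2.24 (RED1, SE 0.421, adjusted p = 0.00242), where 49.3% of genes did and the median gene had -0.81. In footprints 6 of 6 fell, with changes of -0.84 (GMC2, SE 0.311, adjusted p = 0.0451) to -1.80 (HOP1, SE 0.172, adjusted p = 5.24e-05), where 40.8% did and the median gene had -0.45. Relative to the median gene the members stood at -0.34 to -1.42 in mRNA and at -0.39 to -1.35 in footprints. With each library centred, 5 of 6 fell in each assay, all but GMC2 (limma, adjusted p = 0.315 in mRNA and 0.163 in footprints), while over all genes 877 mRNAs rose and 856 fell with centring, against 565 and 2934 as deposited. The corresponding counts for footprints were 1127 and 1712 with centring, against 929 and 2426. GMC2 also missed the threshold in mRNA without either 6 h mRNA library (limma, adjusted p = 0.0587 and 0.104), and in footprints without any single library of 3 or 6 h in the footprints or of 6 h in the mRNA (from 0.0679 to 0.174). In all, the GMC2 call was lost under 11 alternatives and kept under 8 in footprints, and lost under 5 and kept under 14 in mRNA. RED1 footprints missed it without 6 h replicate 2 (limma, adjusted p = 0.0615).

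Translation efficiency, footprints over mRNA on the log2 scale, was above that of the median gene for the 6 members at 3, 4.5, 6 and 8 h of the course. Relative to the median gene GMC2 stood at 1.50, 1.56, 2.12, 2.15, 1.60, 1.85 and 0.56 at 0, 1.5, 3, 4.5, 6, 8 and 10 h, the highest of the 6 at each of these times. RED1 stood at -1.99, -0.57, 0.18, 0.32, 0.88, 0.81 and -1.06, the lowest at 0, 1.5, 3, 4.5 and 10 h. The other 4 lay between 0.27 and 1.63 from 0 to 8 h. The median of the 6 was 1.30 at 8 h and -0.28 at 10 h, where the mRNA and footprint values had parted. In vegetative cells it was -1.32, with all 6 below the median gene, although the footprints there rest on few reads. Headers name different replicates for the vegetative mRNA and for a column identical to the vegetative footprints. The vegetative value may thus set different replicates against each other. The 0 h values rest on few reads too, with 6 footprint and 12 mRNA reads for GMC2 and 8 footprint reads for RED1.

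**Figure D4:**
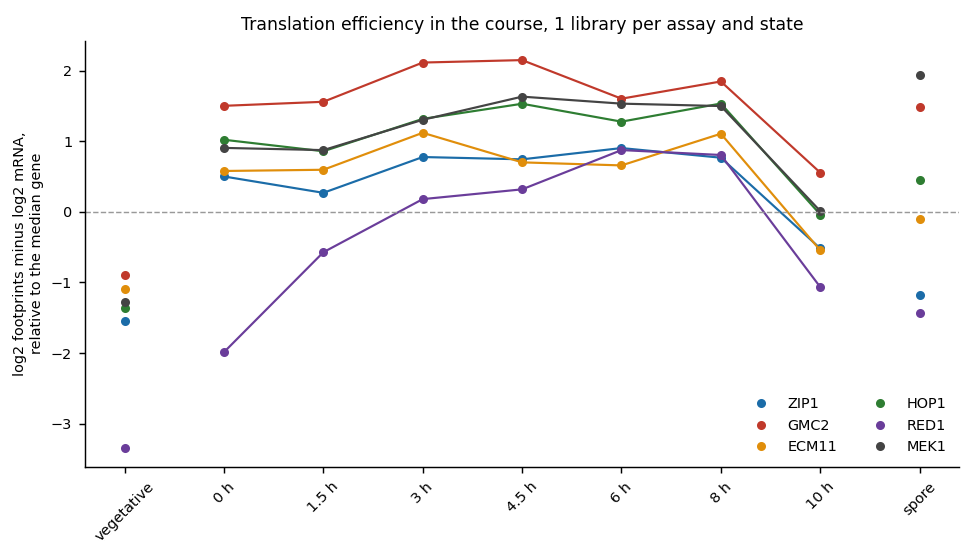
Translation efficiency relative to the median gene (vertical axis, log2) by state (horizontal axis) in the course, 1 library per assay and state, with a dashed line at 0. The 6 members are above 0 from 3 to 8 h (RED1 with 0.18 at 3 h) and drop together to between 0.56 (GMC2) and -1.06 (RED1) at 10 h.

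The parallel libraries gave no call on translation efficiency for these genes. At 3 h against 1.5 h the interaction of assay and time lay between -0.41 (ECM11, 95% interval -1.25 to 0.42) and 0.54 (HOP1, interval -0.07 to 1.16), and 0 of 6 passed in limma, also at an unadjusted p under 0.05. Over all 5948 genes 0 passed, with 515 at an unadjusted p under 0.05. At 6 h against 3 h it lay between 0.06 (HOP1, interval -0.56 to 0.67) and 0.89 (RED1, interval -0.34 to 2.12), with 0 of 6 passing at either threshold, against 1.06% of genes higher and 0.168% lower and a median gene of 0.33. Over all genes 63 were higher and 10 lower, which became 19 and 13 with centring and 24 and 61 with quantile normalization. With centring the HOP1 value turned to -0.30 and the GMC2 value to -0.04. The lone 3 h mRNA library is taken to scatter as the duplicated groups do, and changes within these intervals were not detectable.

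The induction set asks what happens to these transcripts when Ndt80 is induced in meiotic cells. NDT80 mRNA itself was 3110.0, 5626, 5377, 3774 and 1430.1 RPKM after induction (5.75, 6, 6.5, 7 and 7.75 h), against 45.02, 61.2, 79.8 and 65.0 RPKM without it (4, 5.5, 6 and 7.75 h). All 6 members declined after induction and showed no such decline without it. HOP1 mRNA was 1865, 1405, 873, 685 and 76.6 RPKM in induced libraries, against 2142, 2346, 2407 and 2082 in uninduced ones. RED1 was 778, 623, 432, 263 and 45.4 RPKM when induced, against 1160.4, 1385, 916 and 1188 uninduced. MEK1 was 1446, 1261, 1206, 762 and 79.1 RPKM when induced, against 1997, 2149, 2314 and 2069.8 uninduced. In each of these axis genes every induced library lay below every uninduced one. The share of all genes with such a separation was not counted.

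ZIP1 was 1183, 1027, 784, 609.9 and 95.3 RPKM when induced, against 1417, 1507, 1790.0 and 1755 uninduced. ECM11 was 2423, 2206, 1312, 953 and 157 RPKM when induced, against 2751, 3522, 3051 and 3229 uninduced. GMC2 was 1824, 1477, 911, 705 and 168 RPKM when induced, against 1951, 2111, 2734 and 2365 uninduced. The arms did not overlap for these 3 genes either, again without a count over all genes. The lowest library was that of 7.75 h in all 6. At 6 h, the first hour with both arms, the members stood at 54.0% (GMC2) to 72.3% (ECM11) of the uninduced value, where the median gene stood at 96.1%. At 7.75 h they stood at 3.68% (HOP1) to 7.12% (GMC2), where the median gene stood at 34.6%.

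**Figure D5:**
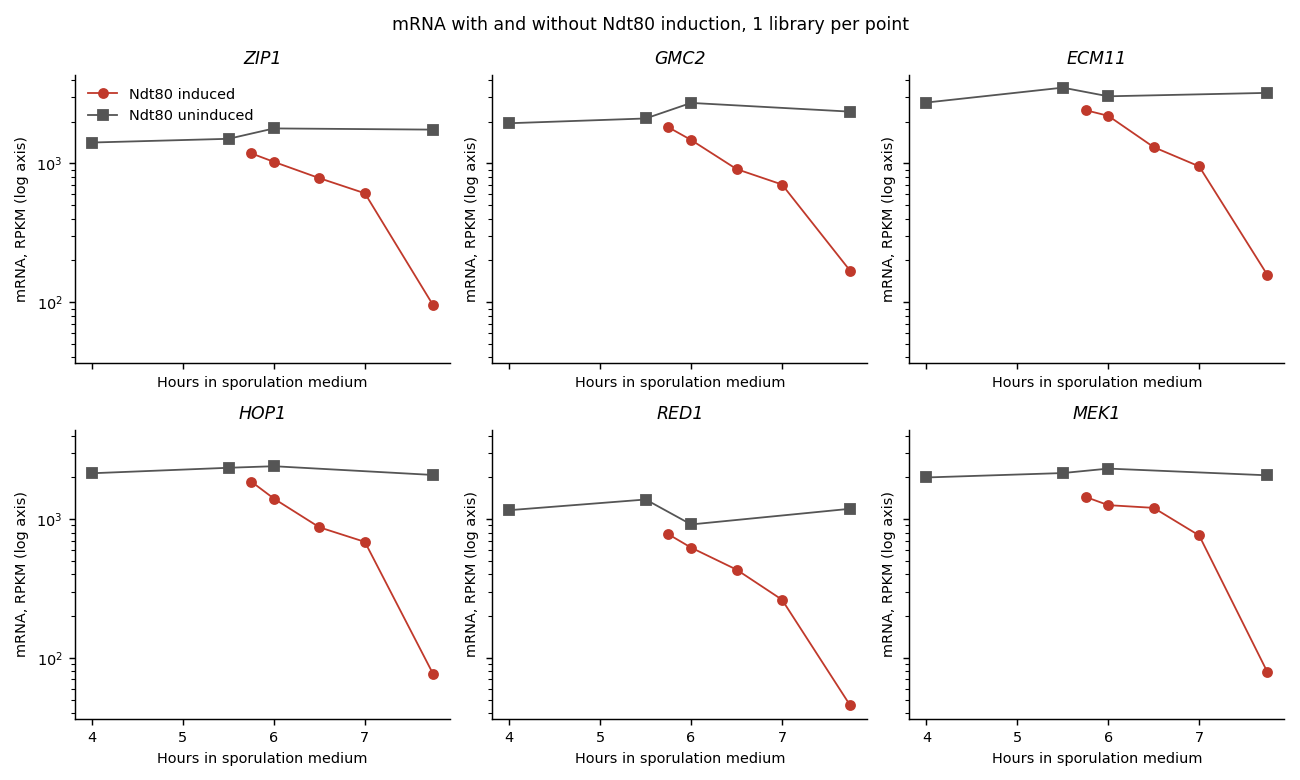
mRNA in RPKM (log vertical axis) by hours in sporulation medium (horizontal axis), with circles for induced and squares for uninduced libraries, 1 library per point. Uninduced lines show no such decline, and induced lines descend, steepest into the last hour (HOP1 with 76.6 RPKM at 7.75 h, against 685 at 7 h).

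The slope over hours was -1.63 (GMC2) to -2.13 (HOP1) log2 units per hour in the induced arm and -0.01 (HOP1) to 0.09 (ZIP1) in the uninduced arm. The median gene had -0.80 and 0.03. No hour of an arm was repeated, so the spread in this fit is departure from the fitted lines. The difference of the slopes, induced minus uninduced, was lower than 0 for 6 of 6 members, from -1.72 (GMC2, SE 0.248) to -2.12 (HOP1, SE 0.334), with limma's adjusted p from 0.000634 to 0.00243, where 57.3% of 5974 genes were lower and the median gene had -0.82. Relative to the median gene the members stood at -0.90 to -1.30, and with each library centred 6 of 6 stayed past the threshold, HOP1 again with the largest value (-1.41), while over all genes 1080 were then higher and 1084 lower, against 435 and 3421 as deposited. The size of the slopes rests in part on the induced library of 7.75 h. Without it the differences were -0.69 (MEK1, adjusted p = 0.0607) to -1.22 (RED1), and 5 of 6 passed, all but MEK1. In that setting 2373 of the genes then tested were lower and the median gene had -0.71. MEK1 thus stood at about the median gene, and the other members closer to it than with the library in.

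With hour as a linear term shared by both arms, the level of the induced libraries differed by -1.22 (ZIP1, SE 0.666) to -1.51 (RED1, SE 0.693), and 0 of 6 passed (limma, adjusted p from 0.483 to 0.530, with 0 of 6 also at an unadjusted p under 0.05). Over all genes 4 rose, 0.067% of 5974, 0 fell and 613 had an unadjusted p under 0.05, and without the induced library of 5.75 h 106 genes passed. With only the induced libraries of 6.5 h and later, 2 of 6 passed in limma, GMC2 (-2.09, adjusted p = 0.0418) and RED1 (-2.38, adjusted p = 0.0455). Of the genes then tested 1142 were lower and 461 higher, and the median gene had -0.80.

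Other genes of the same structures followed the members to differing degrees. In the cohesin axis list (REC8, SMC1, SMC3, IRR1 and PDS5), which ties sister chromatids at the axis, 5 of 5 footprints rose at 1.5 h against 0 h, where 48.6% of all genes did. At 3 h against 1.5 h, when members of the synaptonemal complex rose, 2 of 5 cohesin mRNAs fell, SMC3 (-1.07) and IRR1 (-1.10), where 0.74% of all genes did, and 0 rose. With mRNA libraries alone in the fit 0 mRNAs of all genes fell and 19 rose, so both of these calls were lost. Footprints of IRR1 (-0.77) and PDS5 (-0.99) fell too, where 3.9% did, and REC8, the meiotic kleisin, had 0.19 without passing. By 6 h against 3 h 5 of 5 had fallen in both assays, where 49.3% of mRNAs and 40.8% of footprints did, with medians of -1.97 in mRNA and -1.46 in footprints, against -0.81 and -0.45 for the median gene.

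In the crossover and synapsis initiation list (ZIP2, ZIP3, SPO22, SPO16, MSH4, MSH5 and HFM1), whose products mark the sites where Zip1 starts to polymerise, 7 of 7 footprints rose at 1.5 h against 0 h, where 48.6% of all genes did. At 3 h against 1.5 h 4 of 7 rose in footprints, where 3.87% did, and 0 fell, with ZIP2 at 2.04, HFM1 at 1.79 and SPO22 at 1.65, and 0 of 7 passed in mRNA (limma, median 0.71). Later, at 6 h against 3 h, 6 of 7 mRNAs and 7 of 7 footprints fell, where 49.3% and 40.8% of all genes did. Their slope difference after Ndt80 induction was lower in 7 of 7, with a median of -1.69, where 57.3% of all genes were lower and the median gene had -0.82.

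The axis checkpoint list (PCH2, MEC1, TEL1, RAD17, DDC1, MEC3, RAD24 and FPR3) was mixed. PCH2, the ATPase that removes Hop1 from synapsed axes, rose in footprints at 3 h against 1.5 h (0.99), the 1 of 8 to do so, where 3.87% of all genes did, and 5 of 8 rose at 1.5 h against 0 h, a share near the 48.6% of all genes. In the SUMO list 6 of 8 footprints rose at 1.5 h against 0 h, where 48.6% of all genes did, with SMT3, which encodes SUMO, at 3.08. At 3 h against 1.5 h 0 of 8 passed either way in mRNA or footprints (limma), and at 6 h against 3 h 6 of 8 mRNAs fell, where 49.3% of all genes did.

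The prophase exit list was divided. At 6 h against 3 h 4 of 7 genes rose in both assays, where 9.5% of all mRNAs and 15.6% of footprints did, with the cyclin CLB1 at 5.01 in mRNA and the polo kinase CDC5, which is needed to take the complex apart, at 3.30, while 3 mRNAs and 2 footprints fell. In the course CDC5 mRNA was 1184 RPKM at 4.5 h, against 116 at 3 h, NDT80 was 2251 against 201, and CLB1 was 1378 against 54.2. At 4.5 h ZIP1, ECM11 and GMC2 were at 92.4 to 100% of their highest mRNA level.

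The genes whose course pattern was most like the mean of the 6, over 18 libraries and 5621 genes, were RNP1 (Pearson's r = 0.997), HED1 (0.995), NDJ1 (0.992), YOL131W (0.990), MSH4 (0.990), SPO13 (0.987), HFM1 (0.987) and MND1 (0.984). These are values across libraries of 1 course, each of which serves every gene, with no test. NDJ1 acts at meiotic telomeres, SPO13 in the first division and MND1 in strand exchange, and RNP1 encodes an RNA-binding protein. The members themselves had 0.971 (HOP1) to 0.993 (ECM11) with their own mean, to which each contributes. RNP1 mRNA was 1473, 4169.8, 3164, 1465 and 560.2 RPKM at 1.5, 3, 4.5, 6 and 8 h. Among pairs of members ZIP1 and ECM11 were closest (r = 0.990) and HOP1 and GMC2 farthest apart (r = 0.911).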

How the data were processed

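Ribosome footprint, mRNA and total RNA libraries of budding yeast were used, 52 libraries of 54 samples. The values deposited by the authors are RPKM per gene, per the file headers, except 9 total RNA columns whose deposited values behave as reads multiplied by gene length and were treated as a score without a unit and rescaled within each library. The submitters' processing notes name Bowtie2, CASAVA and bcl2fastq 2.17. Annotation, counted strand and genome build: not given in the sources used here. Of the columns, 7 were not used: 3 repeat course libraries, 2 repeat induction libraries, 1 is a 3 h mRNA column identical to another in all 6679 genes, and 1 is a 0 h mRNA column whose labels disagree. In 11 parallel columns 443 genes stand in another order, none of them members, and values were joined by gene name. Gene names, neighbours and lengths came from the RefSeq table, which matched 5994 genes.

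Values were taken as log2(RPKM + 1), which understates changes of low genes, and genes averaging 5 RPKM or more were kept. The parallel and induction sets were fitted with limma 3.58.1 in R 4.3.3 (trended prior, Benjamini-Hochberg over all genes, adjusted p under 0.05). Translation efficiency was the interaction of assay and time. The parallel fit held 13 libraries and left 5 residual degrees of freedom. Footprints and mRNA shared a spread for each gene. The induction fit had hour as a linear term, for a level and for the difference of slopes. Course states have 1 library each and were counted past 2-fold relative to the median gene. Whole reads, recovered from RPKM and gene length less 60 bases within a tolerance of 0.02, fitted 74.5 to 90.7% of values per library, so no count test was made. Depth intervals cover counting error only. The fits were tested on simulated data. Named genes were the members, up to 3 called genes per list and the 8 genes most like the members. The members and gene lists were chosen with earlier results of these data known. Alternatives covered the pseudocount, the filter, centring, quantile normalization, the prior, the replicate block and leaving out libraries. The strand exchange list is not reported here.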

Additional observations from a re-analysis of the deposited data

Results flagged for a closer look

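In the 5 induced libraries 1 lay apart from the rest for a pair of genes. The gap of the 7.75 h library to its nearest neighbour was 0.736 of the whole range for ZIP1 and 0.779 for MEK1, above the limit of 0.710 for 5 samples. Chance gives such a gap in about 1 of 20 groups, and these libraries are a series of hours, so the lowest is also the last. The slope over hours differed between the induced and the uninduced arm for all 6 genes by limma's test of the difference, with -2.12 for HOP1, -1.94 for RED1, -1.97 for MEK1, -1.78 for ZIP1, -1.95 for ECM11 and -1.72 for GMC2 (log2 per hour).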

How the results depend on the processing

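Of the values for single genes under the alternatives, 1230 kept direction and side of the threshold, 37 lost the threshold, 5 gained it, 24 untested values moved and 12 turned sign. The cause was not tested for any of them. For mRNA at 3 h against 1.5 h, 211 genes passed, which became 126 with centring, 601 with quantile normalization, 123 without a trend in the prior, 61 with the replicate block and 19 with mRNA libraries alone, where 0 members passed. For footprints, 462 genes became 205 with quantile normalization. For translation efficiency at 3 h, 0 genes became 17 without a filter and 2 with quantile normalization. At 6 h against 3 h, 3499 mRNAs became 1733 with centring, and 73 calls on translation efficiency became 47 and 162 with pseudocounts of 0.1 and 5, 170 without a filter, 32 with centring and 41 with the block. For the induction level, 4 genes became 8 with quantile normalization and 1603 with induced libraries of 6.5 h and later, where 2 members passed. For the slope, 3856 became 2164 with centring and 1923 with quantile normalization. In the course, members past 2-fold in mRNA at 3 h were 2, and 4 in total RNA. At 6 h there was 1, with 4 not centred and 2 in total RNA. At 10 h there was 1, with 3 not centred, 2 without a filter and 0 in total RNA. Footprints at 6 h had 0, with 3 not centred and 2 without a filter, and at 8 h 2, with 5 not centred.

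Leaving out 1 library at a time gave 42 to 297 genes and 1 to 3 members for mRNA at 3 h, 48 to 802 genes and 1 to 5 members for footprints at 3 h, 0 to 6 genes for translation efficiency at 3 h and 5 to 137 at 6 h, 3 to 106 genes for the induction level and 2763 to 4075 for the slope. HOP1 mRNA at 3 h turned to -0.091 with centring and -0.26 with quantile normalization, and ran from -0.13 to 0.15 with 1 library left out. Translation efficiency at 3 h turned to -0.28 for GMC2 with quantile normalization, and with 1 library left out it ran from -0.28 to 0.81 for GMC2 and from -0.087 to 0.29 for ZIP1. At 6 h it turned to -0.037 for GMC2 and -0.30 for HOP1 with centring, and to -0.035 for HOP1 with quantile normalization, and ran from -0.095 to 0.21 for HOP1 with 1 library left out. GMC2 at 6 h lost the threshold under 11 alternatives in footprints and 5 in mRNA, among them centring and quantile normalization in both. Same-numbered replicates deviated together past r = 0.1 in 1 of 10 pairs of groups, footprints and mRNA of 1.5 h (r = 0.24). The lowest r was -0.13. Outside 1.5 h the block thus shares little more than a number, and it left 2 members called in mRNA at 3 h. The 0 h footprint library, the shallowest of the parallel set, limits the early folds.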

Other observations

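Neighbouring genes gave values outside the comparisons. MNE1, the gene 3' of MEK1 on the same strand at a gap of 162 bases, had 340, 1357 and 211 RPKM of mRNA at 0, 3 and 8 h of the course, and 31.2, 6.65 and 29.8 RPKM of footprints, so its mRNA was highest where its footprints were lowest. SPO22, divergent from HOP1 at a gap of 647 bases, had 116, 1150 and 129 RPKM of mRNA and 29.1, 721 and 159 RPKM of footprints. ECM7, next to GMC2, had 114, 338 and 96.1 RPKM of mRNA and 7.97, 32.7 and 17.2 RPKM of footprints. No source used here states the counted strand.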
